A study of Mus musculus with 15 samples.

Results

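A set of 10 genes of the Notch pathway was followed across sorted cells made from mouse embryonic stem cells: the receptors Notch1, Notch2, Notch3 and Notch4, the ligands Dll1, Dll4, Jag1 and Jag2, and the target genes Hey1 and Hey2. They were taken by symbol from the gene-level count table, which listed every member among 24034 genes. All 10 were among the 13662 genes with enough reads to test. The study measured RNA by sequencing in 15 libraries, 3 for each of 5 sorted groups, to profile cells picked out by regulatory elements of Endoglin (Eng), a co-receptor for TGF-beta ligands found on endothelium and early blood precursors.

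All groups came from stem cell lines with a reporter gene placed under Eng elements. LacZ encodes beta-galactosidase, and FDG is a substrate that becomes fluorescent when that enzyme cuts it. Both FLK1+ groups came from the line in which the Eng promoter (P) was joined to the -8, +7 and +9 kb enhancers; they were FLK1+ LacZ- and FLK1+ LacZ+ cells. FLK1, encoded by Kdr, is a VEGF receptor that marks mesoderm able to form blood and vessels. The other 3 groups, labelled HEI, carried the promoter with the -8 kb enhancer alone: 2 of them were ENG+, without (ENG+FDG-) or with (ENG+FDG+) the FDG signal, and 1 was ENG-FDG+. The design text places this construct in TIE2+/c-KIT+/CD41- cells with haematopoietic potential. Line, stage and gate thus changed together between FLK1+ and HEI cells and cannot be told apart. The labels give neither the day of differentiation nor the number of clones per line, and they do not say that replicates were separate cultures, so p-values measure only the spread between these samples, which may be technical.

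Notch receptors are cut at the cell surface when a Delta-like or Jagged ligand on a neighbouring cell binds them. The released intracellular part enters the nucleus, joins the DNA-binding protein RBPJ and a Mastermind coactivator, and switches on genes of the HEY and HES families, which encode repressors. In the embryo the pathway acts in the choice of arterial fate and in the formation of haematopoietic stem cells from hemogenic endothelium, where Notch1 is required.

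Promoter windows reaching from 250 bases before to 50 bases after the transcription start were read from RefSeq (GRCm38.p6) for 9 of the 10 members, all but Hey1. They were searched on both strands for TGGGAA, the core of the sequence that RBPJ binds. Of these 9, Hey2 alone had a match, and it had 2, at positions 44 to 49 of the window on the opposite strand and at positions 248 to 253 on the strand shown. A match was present in 25.6% of 32851 windows of this length, and 2 or more in 3.79%. The Hey2 window lies at chr10:30842734-30843033 on the minus strand. It is shown because Hey2 is the HEY gene with higher group means in HEI cells, a difference called in only some of the fits below. Capitals mark TGGGAA or its complement.
Hey2: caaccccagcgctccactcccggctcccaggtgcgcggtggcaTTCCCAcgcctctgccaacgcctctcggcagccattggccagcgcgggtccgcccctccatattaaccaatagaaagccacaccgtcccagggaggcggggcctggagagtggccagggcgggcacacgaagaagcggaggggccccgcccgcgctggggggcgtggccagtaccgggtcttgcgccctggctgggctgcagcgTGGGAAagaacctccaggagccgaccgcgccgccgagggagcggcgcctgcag

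The Notch4 window, at chr17:34564045-34564344 on the plus strand, held no TGGGAA. It is shown because Notch4 is the receptor whose transcripts are most restricted to endothelium, and capitals mark TGACTCA, the AP-1 recognition sequence, at positions 247 to 253. That motif was chosen after the window had been read, and 5.2% of windows held it. These matches describe letters in a window and are not evidence of binding.
Notch4: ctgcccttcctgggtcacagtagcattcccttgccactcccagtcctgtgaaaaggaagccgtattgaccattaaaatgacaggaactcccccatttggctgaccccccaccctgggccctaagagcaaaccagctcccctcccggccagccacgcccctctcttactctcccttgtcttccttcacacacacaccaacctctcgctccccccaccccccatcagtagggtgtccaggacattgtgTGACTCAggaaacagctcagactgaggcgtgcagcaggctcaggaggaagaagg

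Libraries held 9673396 to 16337785 counts. Replicate 1 stood apart in all 5 groups: 1.4 to 3.56% of its counts were the ribosomal precursor Rn45s, against 0.524 to 0.784% elsewhere. Marker levels followed the sort labels. Kdr was present in every group (319 to 1040 CPM, counts scaled to library size), Eng was at 180 to 962 CPM in ENG+ and 39.4 to 161 CPM in ENG- HEI cells, and Cdh5, which encodes VE-cadherin of endothelial junctions, was at 839 to 2840 CPM in HEI cells against 10.4 to 123 CPM in FLK1+ cells. Summed over 5 markers of nascent mesoderm, the level was 496 to 1990 CPM in FLK1+ and 2.29 to 11.4 CPM in HEI libraries, where Mesp1 was at 0.

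Replicate 1 also differed in the Notch genes themselves. Its level was above the mean of replicates 2 and 3 in 5 of 5 groups for Notch1, Notch3, Notch4 and Jag2, by 1.07 to 1.86 on the log2 scale for Notch1, 1.02 to 2.66 for Notch4 and 0.602 to 3.04 for Jag2. Jag1 and Hey2 were lower in replicate 1 in 4 of 5 groups, ENG-FDG+ being the exception. Results are therefore also given with replicate number as a block, which compares groups within each replicate, and for replicates 2 and 3 alone. Levels below are CPM after TMM scaling, in the order of replicates 1, 2 and 3, and differences are log2 fold changes ± SE from edgeR's quasi-likelihood test, called at a Benjamini-Hochberg adjusted p under 0.05 over all genes tested.

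**Figure D1:**
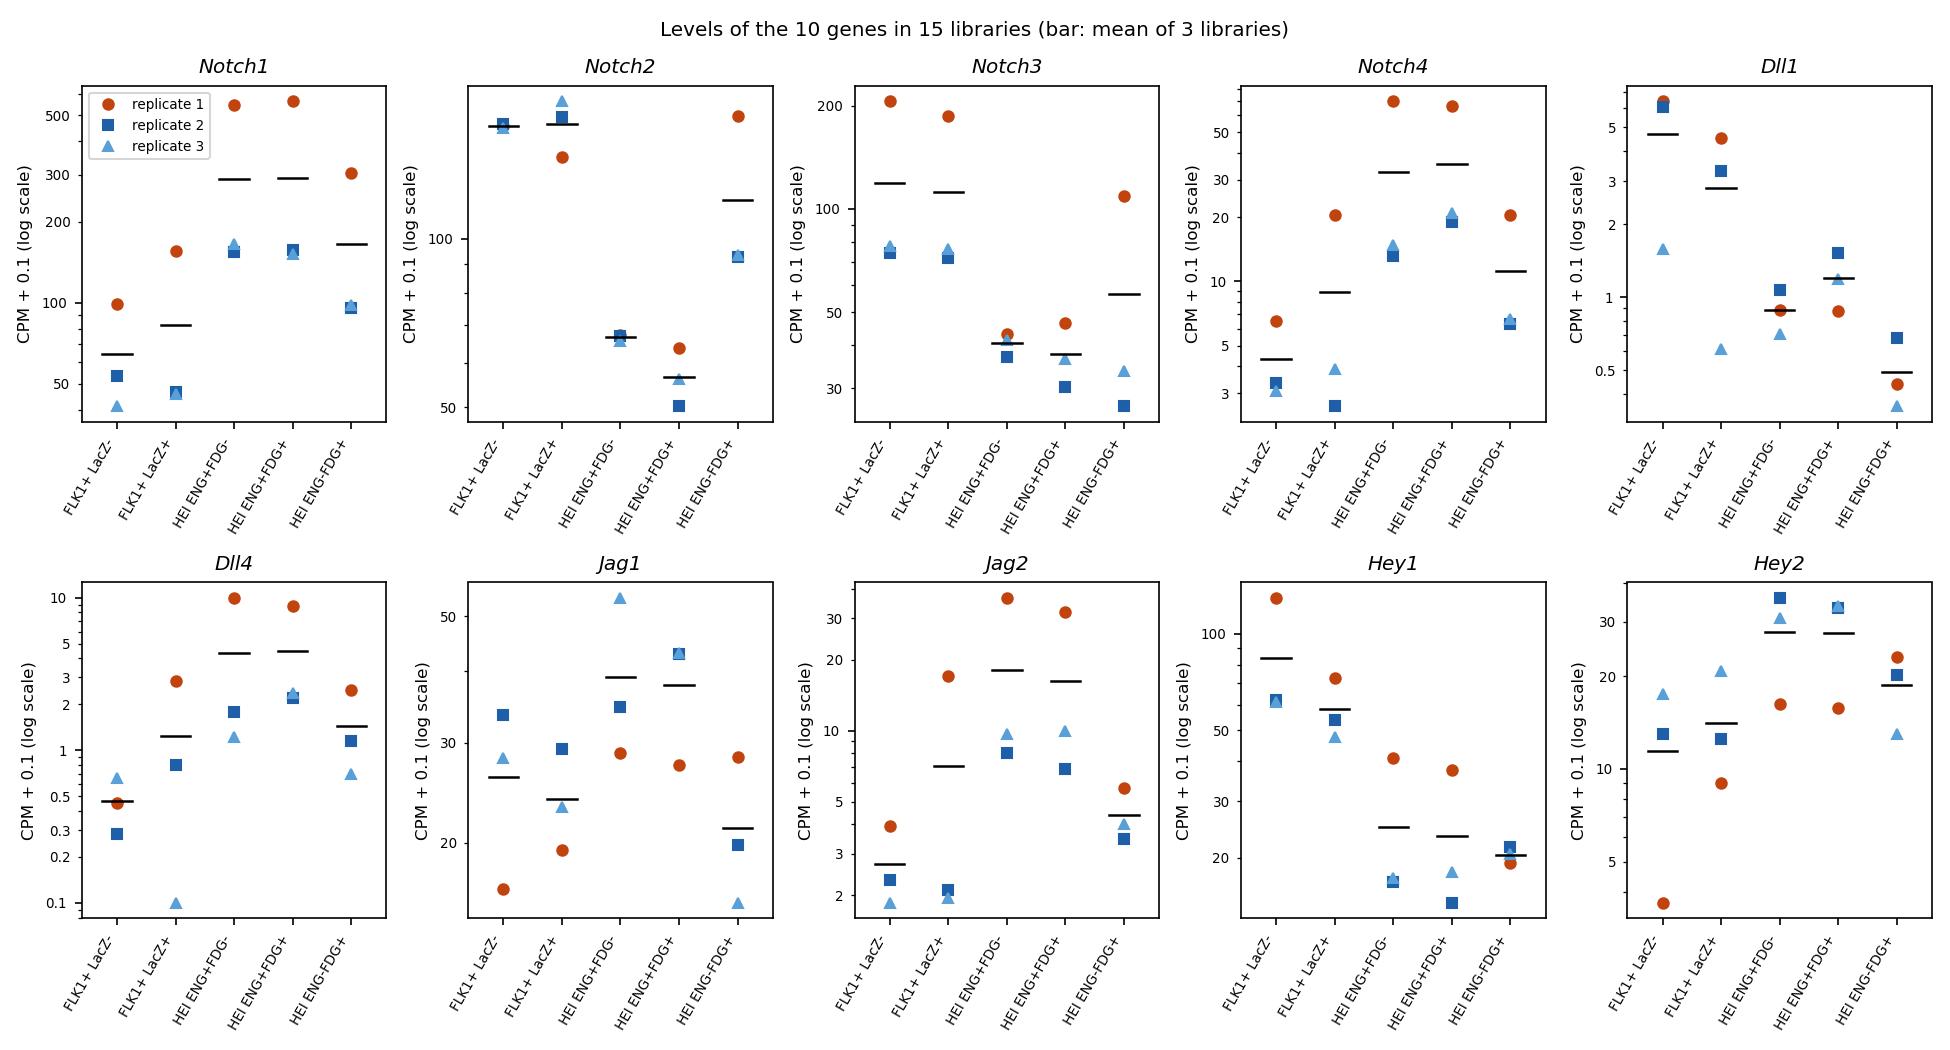
Level of each gene (CPM + 0.1, log scale) in 5 sorted groups, with 1 point per library, shape and colour for the replicate, and a bar for the mean of 3 libraries. Notch1, Notch4 and Jag2 are highest in ENG+ HEI cells, Hey1 is highest in FLK1+ cells (47.62 to 129.2 CPM), and replicate 1 stands above the others for Notch1, Notch3 and Notch4.

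Notch1 and Notch4 were higher in HEI than in FLK1+ cells, while Notch2, Notch3, Dll1 and Hey1 were lower. Dll4 was also higher, at low counts (0 to 43 in FLK1+ and 7 to 163 in HEI libraries). edgeR called 7 of the 10 genes between the 9 HEI and 6 FLK1+ libraries, 3 higher and 4 lower. The background was high: 37.3% of all genes were called, 17.0% higher and 20.3% lower, and the median difference was 0.64 over the 10 genes against -0.11 over all genes. With the replicate block 9 of 10 were called, 5 higher and 4 lower, beside 66.2% of all genes (28.8% higher and 37.4% lower). In replicates 2 and 3 alone 9 of 10 were called beside 73.7% of 13321 genes, and DESeq2 called 9 of 10 beside 36.8%. All 10 kept their direction in these fits. In RNA from bulk sorted cells, fewer cells of a type and less RNA per cell cannot be told apart.

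Among the receptors, Notch1 stood at 98.9, 53.4 and 41.1 CPM in FLK1+ LacZ- cells and at 156, 46.4 and 45.7 CPM in LacZ+ cells. It reached 546.5, 154.8 and 165.2 CPM in HEI ENG+FDG- cells, 562.9, 157.2 and 152.4 CPM in ENG+FDG+ cells and 303.3, 95.2 and 97.8 CPM in ENG-FDG+ cells. Every HEI group lay above both FLK1+ groups within each replicate, but the libraries overlapped when replicates were mixed, because replicate 1 of both FLK1+ groups lay within the range of HEI replicates 2 and 3. Notch1 rose by 1.72 ± 0.50 (3.29-fold, adjusted p = 0.0162, edgeR), and the difference was 1.63 ± 0.10 with the block. Its exons overlap those of 2 opposite-strand genes, 0610009E02Rik and Gm13568, and whether counting used strand is not given in the sources used here, so a small part of its reads may belong to them.

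Notch4, the endothelial receptor, stood at 6.45, 3.23 and 2.97 CPM in FLK1+ LacZ- cells and at 20.3, 2.5 and 3.8 CPM in LacZ+ cells. Its HEI levels were 69.7, 13.04 and 14.6 CPM in ENG+FDG- cells, 66.3, 18.9 and 20.8 CPM in ENG+FDG+ cells and 20.3, 6.25 and 6.56 CPM in ENG-FDG+ cells. The order of the groups was the same as for Notch1, with ENG+ HEI cells at the top and FLK1+ LacZ- cells at the bottom, and each neighbouring pair in that order overlapped for both genes. The rise of Notch4 was 1.92 ± 0.61 (3.79-fold, adjusted p = 0.0246, edgeR) and 1.93 ± 0.19 with the block. It lost the call (adjusted p = 0.0533 to 0.0596, edgeR) without any 1 of 4 libraries, replicates 2 and 3 of FLK1+ LacZ- and of FLK1+ LacZ+.

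Notch2 went the other way. It stood at 158.7, 159.9 and 157.7 CPM in FLK1+ LacZ- cells and at 139.8, 165.2 and 175.9 CPM in LacZ+ cells, and at 67.1, 67.1 and 65.6 CPM in HEI ENG+FDG- and 63.6, 50.1 and 56.1 CPM in ENG+FDG+ cells. In ENG-FDG+ cells it was at 165.5, 92.8 and 93.4 CPM. Replicate 1 of ENG-FDG+ was thus the single HEI library inside the FLK1+ range, and the group lay between FLK1+ and ENG+ HEI cells in replicates 2 and 3. Notch2 fell by 1.07 ± 0.14 on the log2 scale (adjusted p = 7.66e-05, edgeR). Its exons overlap those of the same-strand gene Gm42820, from which its reads may not have been separated.

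Notch3, a receptor best known in mural cells of vessels, stood at 205.9, 74.2 and 77.6 CPM in FLK1+ LacZ- cells and at 187, 71.6 and 76.5 CPM in LacZ+ cells. In HEI cells it was at 43.0, 36.9 and 41.3 CPM in the ENG+FDG- group, at 46.3, 30.2 and 36.5 CPM in the ENG+FDG+ group and at 109, 26.5 and 33.7 CPM in ENG-FDG+ cells. All HEI libraries but ENG-FDG+ replicate 1 lay below the lowest FLK1+ library. Notch3 fell by 1.39 ± 0.35 (adjusted p = 0.0075, edgeR). Beside the high Notch3 and Notch2 of ENG-FDG+ replicate 1 stood a high level of smooth muscle and mesenchyme markers, whose sum over 8 genes was 5056 CPM in that library, 353.6 and 770 CPM in the other ENG-FDG+ libraries and 126.7 to 572.2 CPM in the other groups. Their part in these levels was not tested.

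The make-up of the receptor transcripts differed between the groups. On a per-length scale (CPM per kb of exon), Notch1 was 10.5 to 22.1% of the summed receptor level in FLK1+ libraries, 46.6 to 66.6% in ENG+ HEI libraries and 33.5 to 40.5% in ENG-FDG+ libraries, with no overlap between these 3 sets. Notch2 was 26.2 to 55.4% in FLK1+ cells, 9.93 to 26.7% in ENG+ HEI cells and 29.2 to 44.5% in ENG-FDG+ cells. Notch3 was 46.6 and 53.1% in the FLK1+ libraries of replicate 1, where it was the largest receptor, 31.9 to 34.9% in the other FLK1+ libraries and 9.07 to 25.6% in HEI libraries. Per length, the ratio of Notch1 to Notch2 was 0.197 to 0.845 in FLK1+ cells, 0.777 to 1.39 in ENG-FDG+ cells and 1.75 to 6.7 in ENG+ HEI cells. On this scale Notch2 was therefore above Notch1 in all 6 FLK1+ libraries and below it in all 6 ENG+ HEI libraries. The order depends on the lengths used, 14232 bases for Notch1 and 10782 for Notch2, which join the exons of all annotated transcripts. By CPM alone, FLK1+ LacZ+ replicate 1 held more Notch1 (156 CPM) than Notch2 (139.8 CPM). Notch4 never exceeded 14.8% of the receptor level.

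**Figure D2:**
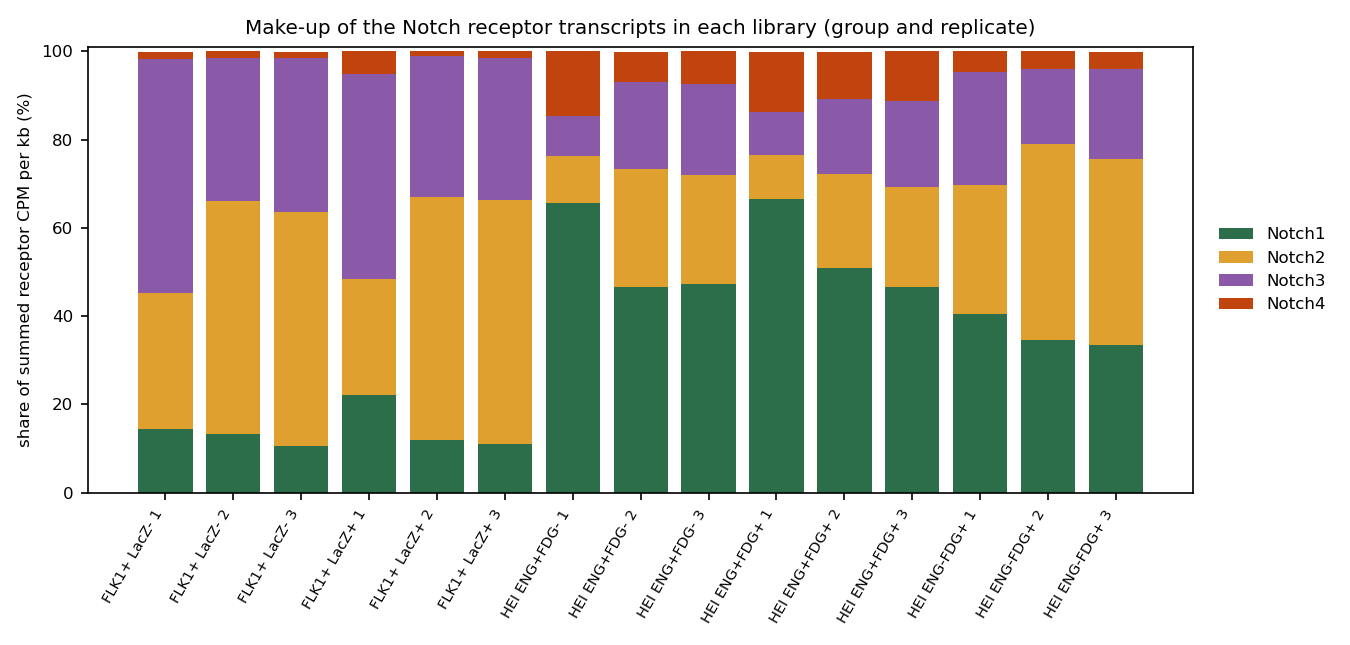
Share of the summed Notch receptor level (CPM per kb, %) held by each receptor in every library, named by group and replicate. Notch1 takes 10.5 to 22.1% in FLK1+ libraries and 46.6 to 66.6% in ENG+ HEI libraries, and Notch4 widens in ENG+ HEI cells.

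Of the ligands, Jag1 encodes a Jagged protein widely made in vessels. It stood at 16.5, 33.4 and 28.1 CPM in FLK1+ LacZ- cells, 19.3, 29.1 and 23.0 CPM in LacZ+ cells, 28.7, 34.6 and 53.8 CPM in HEI ENG+FDG- cells, 27.3, 42.9 and 43.0 CPM in ENG+FDG+ cells and 28.2, 19.7 and 15.6 CPM in ENG-FDG+ cells. The stages overlapped when replicates were mixed, although within replicate 1 all 3 HEI libraries lay above both FLK1+ libraries. The difference of 0.34 ± 0.23 was not called (adjusted p = 0.266, edgeR; 0.0951 with the block).

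Jag2, the other Jagged ligand, stood at 3.86, 2.22 and 1.76 CPM in FLK1+ LacZ- cells and at 17.0, 2 and 1.85 CPM in LacZ+ cells. It was at 36.5, 7.93 and 9.53 CPM in HEI ENG+FDG- cells, 31.7, 6.76 and 9.84 CPM in ENG+FDG+ cells and 5.6, 3.37 and 3.92 CPM in ENG-FDG+ cells. The HEI groups were above FLK1+ LacZ- in every replicate. FLK1+ LacZ+ replicate 1, however, stood above all 3 ENG-FDG+ libraries and above replicates 2 and 3 of both ENG+ HEI groups. The difference of 1.33 ± 0.59 was not called without the block (adjusted p = 0.0978, edgeR). It was called with the block (1.44 ± 0.28, adjusted p = 0.000397, edgeR) and without FLK1+ LacZ+ replicate 1 (2.26, adjusted p = 0.005, edgeR).

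Both Delta-like ligands were rare. Dll4, the ligand of arterial and hemogenic endothelium, had 5, 2 and 6 counts in FLK1+ LacZ- cells and 43, 7 and 0 counts in LacZ+ cells. The count of 0 allows up to 0.308 CPM, taking 3 counts as the limit and counting error alone. HEI libraries held 163, 19 and 13 counts in ENG+FDG- cells, 135, 22 and 23 counts in ENG+FDG+ cells and 28, 11 and 7 counts in ENG-FDG+ cells. Replicate 1 carried most Dll4 reads in 4 of the 5 groups, FLK1+ LacZ- being the exception. Dll4 rose by 2.14 ± 0.79 (adjusted p = 0.0496, edgeR; 0.00218 with the block). The call without the block was lost (adjusted p = 0.0522 to 0.107, edgeR) when any 1 of 11 libraries was left out: all but FLK1+ LacZ+ replicate 1, ENG+FDG- replicates 2 and 3 and ENG-FDG+ replicate 3.

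Dll1, a Delta-like ligand of early mesoderm and somites, had 90, 65 and 16 counts in FLK1+ LacZ- cells and 69, 32 and 5 counts in LacZ+ cells. In HEI cells it had 13, 11 and 7 counts in ENG+FDG-, 12, 15 and 11 counts in ENG+FDG+ and 4, 6 and 3 counts in ENG-FDG+ cells. Replicate 3 was the lowest FLK1+ replicate in both groups, and FLK1+ LacZ+ replicate 3 lay within the HEI range. Dll1 fell by 2.33 ± 0.45 (adjusted p = 0.00122, edgeR), and by 1.72 ± 0.56 in replicates 2 and 3 alone (adjusted p = 0.017, edgeR). Exons of Notch3, Dll1 and Dll4 overlap opposite-strand genes (Gm17276, A930024N18Rik and Gm14207), so their counts carry the same uncertainty as those of Notch1.

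**Figure D3:**
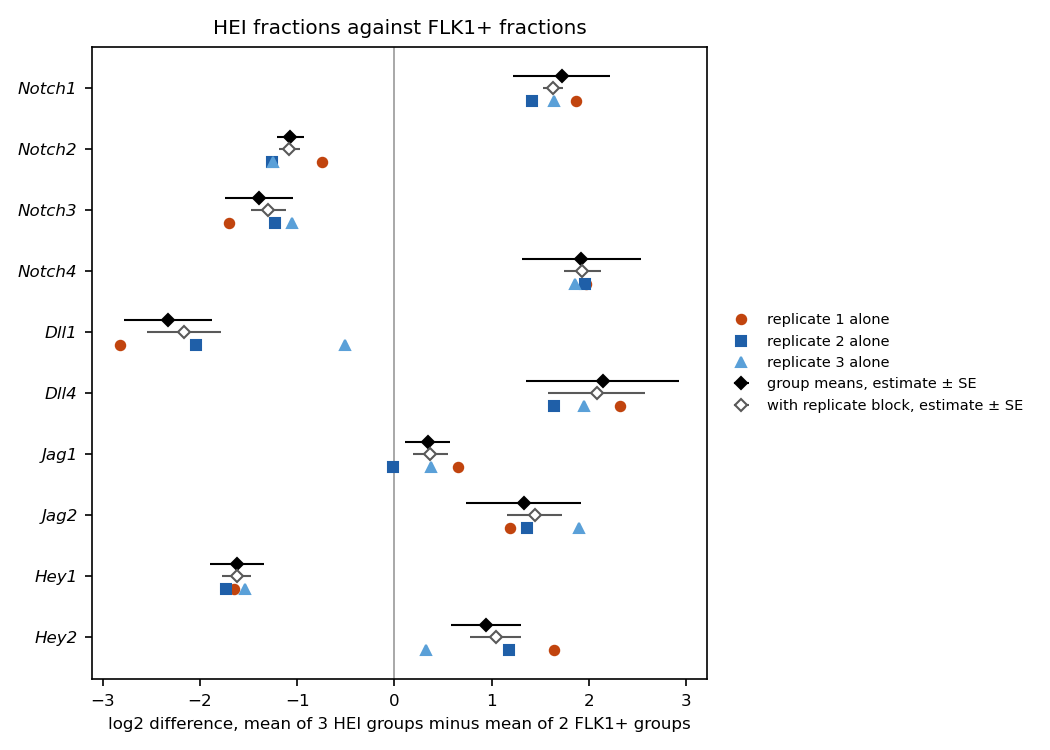
Difference between HEI and FLK1+ cells (log2) for each gene: filled diamonds are the fit of group means, open diamonds the fit with the replicate block (bars, SE), and coloured points the difference within each replicate. Notch4 (1.86 to 1.97) and Hey1 (-1.73 to -1.54) vary least across replicates, while Dll1 spans -2.82 to -0.51.

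Among the targets, Hey1 fell, and its FLK1+ and HEI libraries did not overlap. How common such separation was among all genes was not counted. It stood at 129.2, 61.8 and 61.1 CPM in FLK1+ LacZ- cells and at 72.7, 53.7 and 47.6 CPM in LacZ+ cells. Its HEI levels were 40.9, 16.7 and 17.2 CPM in ENG+FDG- cells, 37.4, 14.4 and 18.0 CPM in ENG+FDG+ cells and 19.2, 21.5 and 20.5 CPM in ENG-FDG+ cells. The 3 HEI groups overlapped one another. Hey1 fell by 1.62 ± 0.28 on the log2 scale (adjusted p = 0.00056, edgeR), in 3 of 3 replicates.

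Hey2 stood at 3.58, 12.9 and 17.4 CPM in FLK1+ LacZ- cells and at 8.88, 12.4 and 20.7 CPM in LacZ+ cells. It was at 16.1, 35.8 and 30.8 CPM in HEI ENG+FDG- cells, 15.7, 33.2 and 33.6 CPM in ENG+FDG+ cells and 22.9, 20.1 and 12.9 CPM in ENG-FDG+ cells. ENG+ HEI cells were above FLK1+ cells within every replicate, and ENG-FDG+ replicate 3 was below both FLK1+ libraries of that replicate. The difference of 0.94 ± 0.36 just missed the threshold (adjusted p = 0.0536, edgeR) and was called with the block (1.04 ± 0.26, adjusted p = 0.00319, edgeR). Leaving out 1 library brought it past the threshold in 4 cases (adjusted p = 0.032 to 0.0385, edgeR): replicate 3 of FLK1+ LacZ- or LacZ+, and replicate 1 of ENG+FDG- or ENG+FDG+. Per length, Hey1 was 3.23 to 50.8 times Hey2 in FLK1+ libraries and 0.609 to 3.56 times Hey2 in HEI libraries. The 2 ranges overlapped through replicate 1. In replicates 2 and 3 the ratio was 3.23 to 6.73 in FLK1+ cells and 0.609 to 2.24 in HEI cells, without overlap.

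Other genes of the pathway, a list of 50 of which 46 were tested in edgeR, did not move together between the stages. edgeR called 17 of the 46, 11 higher and 6 lower in HEI cells, a share near the 37.3% of all genes called (17.0% higher and 20.3% lower). The median difference was 0.01 against -0.11 over all genes. Among 9 genes for cutting the receptor, 4 rose and none fell, including Psen2 (2.10 ± 0.42), a catalytic subunit of gamma-secretase, and Furin (1.54 ± 0.56), a protease that cuts the receptor precursor. Of 6 genes that attach sugars to Notch, 2 rose, including Mfng (2.03 ± 0.68), a Fringe enzyme. The nuclear complex had 3 of 14 genes higher and none lower, but 5 higher and 6 lower with the block, and 6 higher and 7 lower in replicates 2 and 3 alone. There the coactivator Maml2 rose most (3.61 ± 0.29), from group means of 3.21 and 4.13 CPM in FLK1+ to between 39.4 and 48.7 CPM in HEI cells. Rbpj itself, at 62.6 to 94.5 CPM in FLK1+ libraries and 59.5 to 87.5 CPM in HEI libraries, differed by -0.12 ± 0.14 (adjusted p = 0.558, edgeR).

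Among 12 genes for ligand endocytosis and receptor turnover, 2 rose and 3 fell, including the ubiquitin ligases Dtx1 and Neurl1b, which were near the detection floor in HEI cells (group means of at most 0.08 and 0.19 CPM). Of the other ligands, Dll3, a Delta-like protein that acts inside the cell, had 19 to 358 counts in FLK1+ libraries and 0 to 3 counts in HEI libraries. Dlk1, a Delta-like protein without the usual Notch-binding domain, fell by 2.70 ± 0.57 (adjusted p = 0.00223, edgeR). ENG-FDG+ replicate 1, at 15.8 CPM, lay above the FLK1+ range for Dlk1 (6.03 to 13.9 CPM). The other HEI libraries were at 0.0866 to 2.05 CPM. With the block 16 of the 46 genes were higher and 17 lower. These stage differences accompanied 10 of 10 endothelial markers higher in HEI cells (sum 2457 to 6160 CPM against 433 to 790.4 CPM in FLK1+ cells), and the part of cell makeup in them was not tested.

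The further targets Nrarp, a feedback inhibitor of Notch, and Hes1, the canonical HES repressor, differed in how they depended on the replicate. Nrarp stood at 15.7 to 31.3 CPM in FLK1+ and 9.25 to 16.3 CPM in HEI libraries and fell by 0.82 ± 0.20 (adjusted p = 0.00627, edgeR). Hes1 stood at 64.2, 49.4 and 49.6 CPM in FLK1+ LacZ- cells and at 52.1, 48.8 and 48.4 CPM in LacZ+ cells. In HEI cells it was at 56.1, 6.43 and 5.46 CPM in the ENG+FDG- group, at 54.5, 7.24 and 5.27 CPM in the ENG+FDG+ group and at 86.2, 5.39 and 4.94 CPM in ENG-FDG+ cells. The HEI libraries of replicate 1 thus lay at or near FLK1+ levels or above them, while all 6 HEI libraries of replicates 2 and 3 lay far below the FLK1+ range. The stage difference was 0.15 within replicate 1, and -2.93 and -3.19 within the others. Without the block it was not called (-1.03 ± 0.74, adjusted p = 0.302, edgeR), and with the block it was (-2.08 ± 0.47, adjusted p = 0.00167, edgeR). Dlk2, Hes5, Hes7 and Heyl had too few reads to test in edgeR. DESeq2, run without that filter, called Dlk2 lower in HEI cells, at group means of at most 0.43 CPM.

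**Figure D4:**
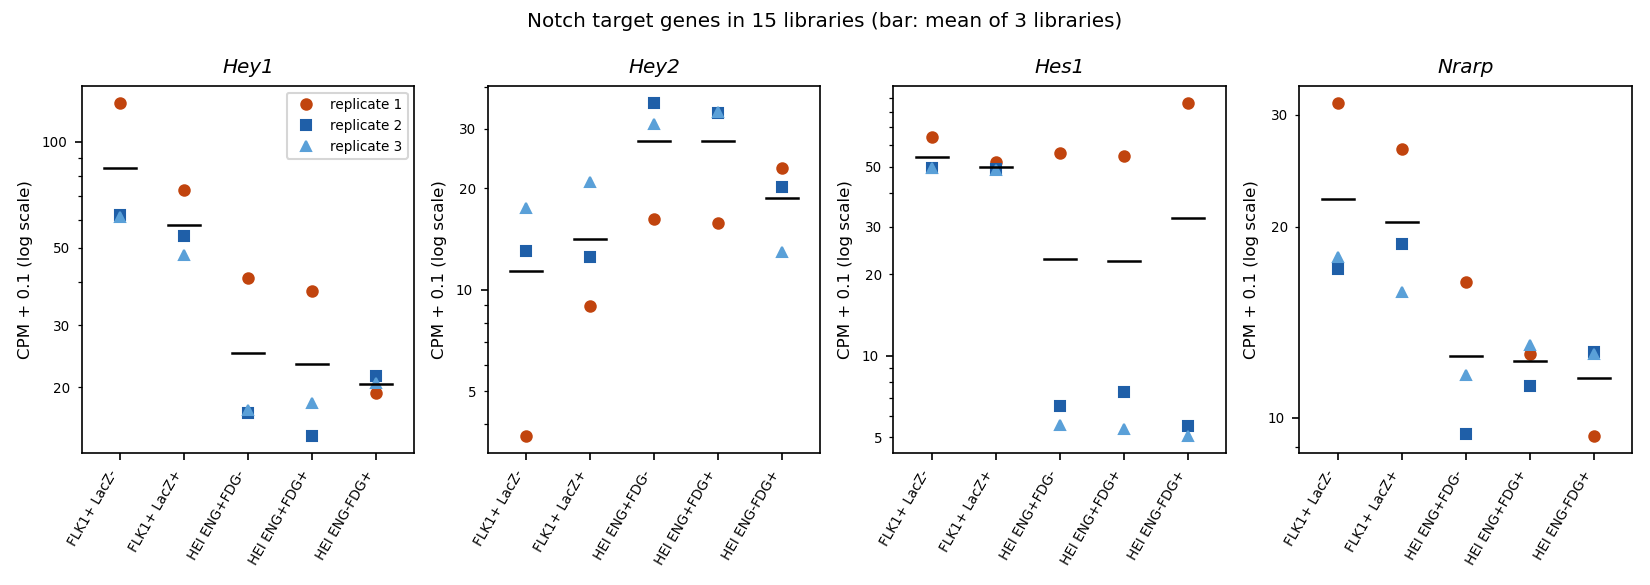
Level of 4 Notch target genes (CPM + 0.1, log scale) in the 5 groups, with 1 point per library and a bar for the mean of 3 libraries. Hey1 and Nrarp are lower in HEI cells, and Hes1 in HEI cells is at 54.5 to 86.2 CPM in replicate 1 but at 4.94 to 7.24 CPM in replicates 2 and 3.

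Within HEI cells, the receptors Notch1 and Notch4 and the ligand Jag2 were higher, and Notch2 lower, in ENG+FDG+ than in ENG-FDG+ cells in 3 of 3 replicates. Except for Notch2 in DESeq2, these differences were called only with the block or in replicates 2 and 3 alone. Without the block edgeR called none of the 10 genes beside 0.278% of all genes; 2 of the 10, Notch2 and Jag1, and 1288 genes had an unadjusted p under 0.05. DESeq2 called 1, Notch2 (adjusted p = 0.00195), beside 2.78% of genes. With the block edgeR called 4 of the 10, beside 10.8% of all genes, 5.10% higher and 5.75% lower. In replicates 2 and 3 alone it called 6 beside 29.3%, adding Jag1 and Hey2.

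Notch4 was 1.66 ± 0.27 higher in ENG+FDG+ cells with the block (3.16-fold, adjusted p = 0.00179, edgeR), and the difference was 1.70, 1.57 and 1.64 in the 3 replicates. Without the block the same size of difference, 1.68, had an SE of 0.90 (adjusted p = 0.646, edgeR). Notch1 differed by 0.76 ± 0.15 with the block (adjusted p = 0.00622, edgeR; 0.914 without it), again in every replicate (0.89, 0.72 and 0.64). Notch2 differed by -1.03 ± 0.18 with the block (adjusted p = 0.00293, edgeR) and by -1.05 ± 0.23 without it (adjusted p = 0.0779, edgeR). Its ENG+FDG+ and ENG-FDG+ libraries did not overlap.

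Jag2 was 1.59 ± 0.41 higher in ENG+FDG+ cells with the block (adjusted p = 0.0256, edgeR; 0.546 without it), without overlap between the groups and with a larger gap in replicate 1 (2.47) than in replicates 2 and 3 (0.97 and 1.29). Dll1 and Dll4 were higher in 3 of 3 replicates but not called (1.56 ± 0.66 and 1.61 ± 0.67 with the block, adjusted p = 0.145 and 0.139, edgeR), at the counts given above. Jag1 and Hey2 differed in sign between replicates. Jag1 was at -0.04 in replicate 1 and at 1.11 and 1.45 in the others (1.35 ± 0.21 in replicates 2 and 3 alone, adjusted p = 0.000732, edgeR). Hey2 was at -0.54, 0.72 and 1.37 (1.09 ± 0.25 in replicates 2 and 3 alone, adjusted p = 0.00816, edgeR). Notch3 and Hey1 likewise turned with replicate 1, Notch3 from -1.23 in replicate 1 to 0.19 and 0.12, and Hey1 from 0.96 to -0.57 and -0.18, and neither was called in any of these fits.

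**Figure D5:**
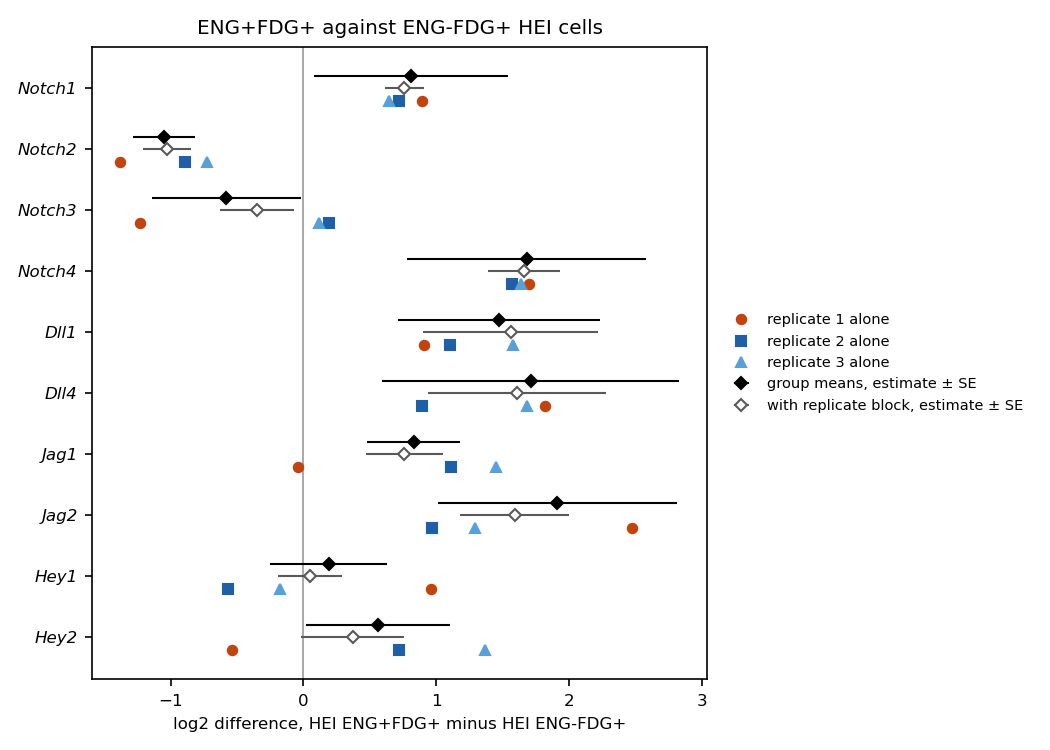
Difference between ENG+FDG+ and ENG-FDG+ HEI cells (log2) for each gene, with the fit of group means (filled diamonds), the fit with the replicate block (open diamonds; bars, SE) and each replicate alone (coloured points). Notch4 is at 1.57 to 1.70 in every replicate, and replicate 1 lies on the other side of 0 from replicates 2 and 3 for Notch3, Jag1, Hey1 and Hey2.

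The same contrast carried other cell markers with it. The summed level of 11 blood markers was 548.3 to 795.9 CPM in ENG-FDG+ cells and 95.3 to 171.6 CPM in ENG+ HEI cells, and that of 10 endothelial markers was 2457 to 2702 CPM against 4222 to 6160 CPM. No marker of either list was at 0 throughout a HEI group. With the block, 6 of 10 endothelial markers were called higher in ENG+FDG+ cells, and 9 of 10 tested blood markers and 6 of 8 smooth muscle and mesenchyme markers lower. Their part in the differences of the Notch genes was not tested. Of the 46 other pathway genes edgeR called none without the block, beside 0.278% of all genes. DESeq2 called 2, beside 2.78% of genes, Eogt higher (adjusted p = 0.0328) and Dlk1 lower (adjusted p = 0.00894). With the block edgeR called 4 of the 46, beside 10.8% of all genes. Psen2 (1.54 ± 0.35), Numb (0.59 ± 0.14), an inhibitor of Notch receptors, and Eogt (0.55 ± 0.12), a sugar transferase, were higher in ENG+FDG+ cells. Dlk1 (-3.10 ± 0.85) was lower, with 186, 14 and 24 counts in ENG-FDG+ and 9, 4 and 8 counts in ENG+FDG+ libraries. Its difference was -4.41 in replicate 1. In replicates 2 and 3 alone it was -1.47 ± 0.70, without a call (adjusted p = 0.137, edgeR).

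ENG-FDG+ cells were also set against ENG+FDG- cells, a comparison that shares the ENG-FDG+ libraries with the one above and in which both gates differ. None of the 10 genes was called without the block beside 0.351% of all genes; 3, Notch2, Jag1 and Jag2, had an unadjusted p under 0.05, as did 1309 genes. DESeq2 called Notch2 alone (adjusted p = 0.039), beside 2.91% of genes. With the block edgeR called 4 beside 11.1% of all genes (5.44% higher and 5.65% lower). Notch1 (-0.77 ± 0.15, adjusted p = 0.00554), Notch4 (-1.36 ± 0.27, adjusted p = 0.00614) and Jag2 (-1.72 ± 0.41, adjusted p = 0.0173) were lower in ENG-FDG+ cells, and Notch2 was higher (0.79 ± 0.18, adjusted p = 0.0125). In replicates 2 and 3 alone 7 were called beside 27.1%, with Notch3 (-0.41 ± 0.13), Jag1 (-1.36 ± 0.21) and Hey2 (-1.06 ± 0.25) also lower. Replicate 1 went the other way for Notch3 (1.34) and Hey2 (0.50), and Jag1 was at -0.03 there. Dll1, Dll4 and Hey1 differed by -1 ± 0.77, -1.66 ± 1.12 and -0.29 ± 0.44 without a call in any of these fits. Among the 46 other pathway genes edgeR called none without the block. DESeq2 called 2, beside 2.91% of genes, Eogt lower (adjusted p = 0.0067) and Dlk1 higher (adjusted p = 0.0421). With the block edgeR called 3 of the 46, beside 11.1% of all genes. Psen2 (-1.23 ± 0.36), Eogt (-0.64 ± 0.12) and Numb (-0.47 ± 0.14) were lower.

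Activity of the reporter was not accompanied by a called difference in any of the 10 genes. Between ENG+FDG+ and ENG+FDG- HEI cells edgeR called none of the 10 and no other gene (0%), with or without the block, and 0 of the 10 and 39 genes had an unadjusted p under 0.05. DESeq2 called no gene. Dll1 differed most, by 0.47 ± 0.72, and the other 9 by -0.23 to 0.12. Without replicate 1, 0.563% of genes were called, none of them among the 10. These values do not show that the groups were alike: the SE of Notch4 was 0.87, and with the block 0.25.

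Between FLK1+ LacZ+ and LacZ- cells edgeR also called no gene (0%), with or without the block; 0 of the 10 and 170 genes had an unadjusted p under 0.05, and DESeq2 called 7 genes (0.0367%), none of the 10. The largest differences were those of Dll4 (1.68 ± 1.22), Jag2 (1.41 ± 0.90) and Notch4 (1.08 ± 0.90). They were largest in replicate 1, at 2.49, 2.09 and 1.63. In replicates 2 and 3 alone they were -0.07 ± 0.97, -0.06 ± 0.36 and 0.01 ± 0.27, and 0.0601% of genes were called, none of the 10. For Dll4 this value joins 1.30 in replicate 2 and -2.12 in replicate 3, at 0 to 7 counts per library. Endothelial markers were also higher in LacZ+ cells in 9 of 10 genes by sign (median 1.75, none called). Their summed level was higher in replicate 1 alone (732.1 against 433 CPM). In replicates 2 and 3 it was 760.6 against 790.4 CPM and 651 against 654.5 CPM. In LacZ+ cells 5 of 5 nascent mesoderm markers were lower by sign (median -0.82, none called). The part of either marker set was not tested. Dll1 (-0.75 ± 0.68) and Hey1 (-0.53 ± 0.44) were lower in LacZ+ cells in 3 of 3 replicates, and the other 5 genes differed by -0.13 to 0.36.

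The effect of reporter activity was compared between HEI and FLK1+ cells in the same fit. edgeR called no gene (0%) and none of the 10; 97 genes and 0 of the 10 had an unadjusted p under 0.05, and DESeq2 called none. Without replicate 1, 0.0300% of genes were called, none of the 10. The differences of effect ranged from -1.63 ± 1.61 for Dll4 to 1.22 ± 0.99 for Dll1.

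To place the 8 members with a mean of at least 5 CPM among other genes, profiles of log2 CPM over the 15 libraries, each centred on its own mean, were compared with those of 10269 genes by their mean absolute difference. Notch4 and Jag2 were among the 3 genes nearest to each other (0.30), after Cyyr1 (0.27) and Arhgap27 (0.28) for Notch4 and after Fes (0.29) for Jag2. Map3k11 (0.16), Piezo1 (0.17) and Jup (0.18) were nearest to Notch1, and Jup was also among the nearest 3 for Jag2 (0.33). Rab11fip1 (0.13) was nearest to Notch2, Pafah1b3 (0.18) to Notch3 and Raph1 (0.20) to Jag1. Hey1 was nearest to 2610318N02Rik (0.16), Abcd4 (0.20) and Myc (0.20), and Hey2 to Smarca2 (0.26). These libraries share the replicate difference described above, which enters every such profile.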

How the data were processed

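Per the labels' protocols, RNA from the sorted cells went through Nugen amplification. The authors deposited 1 table of raw counts per gene for the 15 libraries. The submitters' processing notes name STAR 2.4.0, HTSeq 0.6.1 and build mm10; the sources used here give neither the annotation nor the strand setting. Of 24061 lines, 27 whose symbols had become dates (0.269% of counts) were left out. In R 4.3.3, edgeR 4.0.16 was run on genes kept by filterByExpr, with TMM scaling and a robust quasi-likelihood fit of 5 group means over all 15 libraries; DESeq2 1.42.0 was an alternative. Scripts were tested on simulated data. Log2 CPM of single libraries used a prior count of 2.

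The main fit of group means used no pairing. In the block fit and in differences within a replicate, libraries of the same replicate number were treated as paired. This also paired FLK1+ with HEI libraries, which came from different lines. All 30 same-number pairs deviated together from their group means (correlation 0.432 to 0.867). Pairs of different number were not compared, and replicate 1 stood apart in every group. These correlations therefore cannot show that replicates 2 and 3 were paired across groups. The labels' numbers are the source of this pairing. The biological coefficient of variation was 0.477 for group means, 0.199 with the block and 0.076 in replicates 2 and 3.

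All 10 members were named. Other pathway genes past the threshold (failing any, past it with the block) were named up to 4 each way by size; Hes1, Nrarp and Rbpj were added as targets and cofactor after their values were seen. The 3 nearest genes were found for members above 5 CPM. Members and lists were chosen with earlier results of these data known. Exon lengths and overlaps came from GENCODE M21 (GRCm38). Summed markers not given in the text were at 13.7 to 121.3 CPM (cardiac), 2 to 27.0 CPM (neural), 0.0962 to 1.72 CPM (endoderm) and 0 to 75.6 CPM (pluripotency, all libraries above 1 CPM being FLK1+).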

Additional observations from a re-analysis of the deposited data

How the results depend on the processing

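All 10 genes kept their direction between HEI and FLK1+ cells under every alternative run, including without each library in turn. The genes called there numbered 9039 with the replicate block and 9815 in replicates 2 and 3 alone, against 5096. Between ENG+FDG+ and ENG-FDG+ cells 4 of the 10 were called with the block, 6 in replicates 2 and 3 alone and 1 by DESeq2, and all genes called numbered 1482, 3899 and 405, against 38. They numbered 12 without the filter on low counts, 65 with at least 5 CPM in 3 libraries, 0 when only the 2 groups were fitted, and 0 to 61 without 1 library. Between ENG-FDG+ and ENG+FDG- cells 4, 7 and 1 of the 10 and 1515, 3605 and 424 genes were called in those same 3 fits, against 48, and 13 without the filter, 0 when only the 2 groups were fitted and 0 to 62 without 1 library. In the FLK1+ comparison DESeq2 called 7 genes, replicates 2 and 3 alone 8, and fits without 1 library 0 to 1. Replicates 2 and 3 alone gave 75 genes between ENG+FDG+ and ENG+FDG- cells and 4 for the difference of reporter effects. The block changed no call other than those given with the results.

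Signs turned in replicates 2 and 3 alone for Dll4 (-0.072) and Jag2 (-0.057) in the FLK1+ comparison, for Notch3 (0.20) and Hey1 (-0.31) between ENG+FDG+ and ENG-FDG+ cells, and for Notch3 (-0.41) and Hey1 (0.27) between ENG-FDG+ and ENG+FDG- cells. Without 1 library, the FLK1+ differences ranged from -0.43 to 1.52 for Notch4, -0.045 to 2.23 for Dll4 and -0.45 to 1.86 for Jag2, the lowest each time without FLK1+ LacZ+ replicate 1. Between ENG+FDG+ and ENG-FDG+ cells the ranges were -0.091 to 1.60 for Notch1, -0.92 to 0.34 for Notch3 and -0.33 to 0.45 for Hey1. Between ENG-FDG+ and ENG+FDG- cells they were -1.62 to 0.043 for Notch1, -0.46 to 0.81 for Notch3 and -0.52 to 0.26 for Hey1. Each of these turns came from leaving out a replicate 1 library of 1 group alone, which unbalances the replicates. Members within 0.4 of 0 in the reporter comparisons, 5 in FLK1+ and 9 in HEI cells, were not followed singly; 5 and 8 of them changed sign under some alternative and none was called. With 3 libraries a group, and Dll1 and Dll4 at 0 to 163 counts, small differences of the Delta-like ligands were not detectable.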
